A study of Mus musculus with 24 samples.

Results

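The regions described here are 4149 sites of open chromatin that appeared in mouse embryonic stem cells when the DNA-binding protein CTCF was degraded. They are the peaks of the control line with IAA, replicate 1, that overlapped a peak of replicate 2 with IAA and no peak of either replicate of the same line without IAA. They were chosen by these 4 measured lists, and they make up 3.45% of the 120137 peaks of the list that gives their intervals. Of that list, 99993 peaks were in both IAA lists. Of these, 8288 were also in 1 of the control lists without IAA and 87556 in both, and these 2 sets serve below as the comparison.

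ATAC-seq, where the Tn5 transposase cuts and tags DNA free of nucleosomes, gave the accessibility. All 24 libraries came from the E14 stem cell line with CTCF fused to an auxin-inducible degron (CTCF AID), a tag that sends the protein to the proteasome once the auxin IAA is present. The control line (overexpressed control) was taken without IAA and after 12 h of IAA. A line overexpressing wild-type CTCF and a line overexpressing mutated CTCF were taken after 12 h of IAA, and the labels say neither what the mutation changes nor which promoter drives the transgene, nor whether a line is 1 clone. A serum set was taken at 0 h and at 12 h of IAA. In a Chd4 set and a Chd8 set, cells without IAA carried the hairpin shluci or either of 2 hairpins against the remodeller gene (shRNA1, shRNA2). Each of the 12 groups had 2 libraries. No label says that replicates were separate cultures, so their spread may be technical.

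CTCF holds DNA through its zinc fingers and, with cohesin, anchors chromatin loops and domain boundaries. Its bound sites are open and flanked by regularly spaced nucleosomes, and they lose accessibility when the protein is removed. CTCF is also known as an insulator, which keeps enhancers from acting on promoters across a boundary.

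The sequences around some of the summits are printed here because these sites are named in the results below. They are the plus strand of GRCm38, in lower case, with exact matches to the motifs named later in capitals. The Gsdmc site (chr15:63811212-63811332) and the Gm32431 site (chr16:50994171-50994291) are among the strongest gained sites, and the capitals mark an octamer, the element read by OCT4. The whole Gm32431 window is masked as repeat in the reference. The Gm28117 site (chr15:75190749-75190869) had no match and no call in any list without IAA.

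Gsdmc site: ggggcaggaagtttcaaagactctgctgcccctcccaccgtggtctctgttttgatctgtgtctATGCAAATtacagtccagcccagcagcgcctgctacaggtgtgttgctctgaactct

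Gm32431 site: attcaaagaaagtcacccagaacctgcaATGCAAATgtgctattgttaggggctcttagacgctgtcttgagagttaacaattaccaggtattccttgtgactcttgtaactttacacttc

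Gm28117 site: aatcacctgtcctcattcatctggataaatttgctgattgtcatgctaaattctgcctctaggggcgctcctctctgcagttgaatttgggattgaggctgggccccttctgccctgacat

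The Mical3 site (chr6:121010009-121010129) and the Cul9 site (chr17:46547143-46547285) were called in serum at 12 h and in neither overexpression line, and the capitals mark an AHR and an AP-1 match. The Stambp site (chr6:83563248-83563379) was called in serum at 12 h and in all lists of both lines, and the capitals mark a TEAD and then an OTX match.

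Mical3 site: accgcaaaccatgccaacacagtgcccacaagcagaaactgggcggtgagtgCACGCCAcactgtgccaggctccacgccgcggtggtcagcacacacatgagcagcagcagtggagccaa

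Cul9 site: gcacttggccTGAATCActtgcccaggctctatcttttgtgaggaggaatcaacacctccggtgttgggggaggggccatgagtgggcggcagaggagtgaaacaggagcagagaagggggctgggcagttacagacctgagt

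Stambp site: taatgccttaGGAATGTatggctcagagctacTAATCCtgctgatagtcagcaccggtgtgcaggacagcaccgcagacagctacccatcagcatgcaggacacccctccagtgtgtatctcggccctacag

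Of the gained sites, 3 held the CTCF consensus without mismatch within 250 bp of the summit, and they are shown as the exceptions to the general lack of it. They lie at chr4:83925188-83925308 near Gm11415, at chr4:152103201-152103321 in Plekhg5 and at chr5:139933627-139933747 in Elfn1, and they were picked out after their values were seen. The 14 capitals in a row mark the CTCF consensus, and the shorter capitals mark a SOX match.

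Gm11415 site: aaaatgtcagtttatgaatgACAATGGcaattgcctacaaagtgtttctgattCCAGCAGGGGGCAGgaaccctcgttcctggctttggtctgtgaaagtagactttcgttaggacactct

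Plekhg5 site: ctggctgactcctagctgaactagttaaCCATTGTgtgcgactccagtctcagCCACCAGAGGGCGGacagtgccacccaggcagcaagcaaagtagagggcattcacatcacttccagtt

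Elfn1 site: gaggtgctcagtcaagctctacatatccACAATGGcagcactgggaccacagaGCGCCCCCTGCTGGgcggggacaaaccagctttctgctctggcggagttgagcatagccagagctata

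The lists held 59786 to 166697 peaks, so they reach different depths and shares are compared within a set. The number of reads per library is unknown from these files. The peak names inside the serum 12 h lists carry other replicate numbers than their labels, and the labels' numbers are used here. The serum labels name serum, whereas the growth protocol names serum-free medium for all libraries. Of 14 genes of naive pluripotency, 11 had a promoter peak in every list of the serum set and of the CTCF lines (12 lists), while Prdm14 had one in 11, Pou5f1 in 9 and Dppa3 in 0. A peak over a stretch of chromosome 1 that resembles mitochondrial DNA was found in 5 of these 8 CTCF line lists. It was missing from IAA replicate 1 of the control line, which gives the intervals, and from replicate 2 of both overexpression lines. Both lists without IAA had it. Without IAA replicate 1, so that all lists in the rule had this peak, 15845 sites were gained, of which the wild-type lists did not call 64.7% and 71.4% and the mutated lists 60.6% and 67.6%. The serum means for these sites were 5.24% at 0 h and 11.8% at 12 h. The rule gave 13630 sites without IAA replicate 2, 8016 without control replicate 1 and 8570 without control replicate 2, so each of the 4 lists sets the number of gained sites.

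The gained sites were weak and narrow by the values that chose them. The authors' −log10 q, a measure of how far a peak stands above the local background of its own list, had a median of 4.37 at the gained sites in IAA replicate 1. It was 5.75 in the peaks of 1 control list and 20.3 in those of both. The median width was 270 bp, against 572 bp for peaks of both control lists. Of the gained sites, 303 had a −log10 q under 2 and 15 had 20 or more. Gained sites made up 37.1% of the peaks under 2 and 0.0336% of those at 20 or more. Most gained sites lay between 3 and 10, with 1498 from 3 to 5 and 1480 from 5 to 10. Near the calling threshold, 63 gained sites had a −log10 q under 1.5, and 26 peaks were kept out by a sole control peak under 1.5. In distance, 117 gained sites lay within 100 bp of a control peak, and 41 peaks were kept out by an overlap of at most 10 bp. The median gap to the nearest control peak was 2273 bp, and 708 gained sites (17.1%) lay over 10 kb from any control peak.

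Because strength differs, the comparison sets are given below also "at matched strength". Shares were taken within 6 ranges of −log10 q, with edges at 2, 3, 5, 10 and 20, and weighted to the number of gained sites in each range. No p-value is given for any of these shares, since 2 libraries against 2 cannot go below an exact two-sided p of 0.333 and the sites were selected on earlier results of these data.

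Most gained sites lay away from gene starts. Promoters, taken as summits within 500 bp of an annotated start (GENCODE vM21), held 182 of the gained sites (4.39%). They held 16.3% of all peaks in both IAA lists, 5.95% of these at matched strength. Introns held 2109 gained sites (50.8%) and intergenic DNA 1539 (37.1%), near the 50.1% and 35.5% of all peaks in both IAA lists at matched strength. Coding exons held 155 (3.74%), against 4.83% at matched strength, and exon parts outside coding sequence held 164 (3.95%). The median distance to a start was 13392 bp, against 10250 bp for all peaks in both IAA lists, and 191 gained sites lay over 100 kb from a start. Of the 182 promoter sites, 85 were nearest to a start of a protein-coding gene, 24 to a lincRNA and 21 to a processed pseudogene. Peaks of both control lists held 6.75% at matched strength, and those of 1 control list 4.35%. The gained share was thus below that of matched peaks of both control lists and near that of peaks of 1 control list.

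The gained sites lay on many chromosomes. Per chromosome, their share against that of all peaks in both IAA lists ran from 0.799 on chromosome 15 to 1.18 on chromosome 16. Only 317 gained sites (7.64%) lay within 10 kb of another. By count within a gene and 10 kb around it, Gm20388, an annotated model of 4434882 bp on chromosome 8, held 19 gained sites of 381 peaks. The gene model of Fgfr2, a receptor for fibroblast growth factors, spans 2960900 bp in this annotation and held 9 of 168. Tenm4, a teneurin that acts in cell adhesion, held 7 of 84. These models are long, and their shares of 4.99%, 5.36% and 8.33% compare with 4.15% over all peaks in both IAA lists. Some genes with 4 or more gained sites held higher shares, and they are named after their values were seen. Fcho2 and Ttll6 held 4 of 7 peaks each (57.1%), U2surp 4 of 8, AU040320 4 of 13 (30.8%), Nedd4 5 of 21 (23.8%), Cntnap2 5 of 33 (15.2%) and Sox5 6 of 46 (13.04%).

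The CTCF consensus was rare in the gained sites. The 9843 peaks in both lists without IAA and in neither IAA list held the CTCF consensus, of 14 bp with at most 1 mismatch, in 29.2% of cases. The gained sites held it in 57 cases (1.37%, 95% Wilson interval 1.06% to 1.78%). Peaks of 1 control list held it in 1.52%, or 1.47% at matched strength, inside this interval. Peaks of both control lists held it in 3.63%, or 4.58% at matched strength. With no mismatch, the share was 0.0723% in the gained sites and 9.20% in the lost peaks. The loss of CTCF sites is the same contrast as the rule, so this is a description of both ends of it.

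The 3 exceptions did not stay alike. The Plekhg5 site, in an intron, had a −log10 q of 8.74 and 9.83 with IAA, and of 13.0, 7.86, 6.997 and 6.38 in the wild-type and mutated lists. Both serum 0 h lists also called it, at 4.61 and 2.58, as did 2 lists of the Chd8 set, and no serum 12 h list did. The Elfn1 site, in an intron of a gene for a synaptic adhesion protein, had 10.1 and 9.68 with IAA and was called in replicate 1 of each line, at 6.70 and 8.13, and in no serum or Chd list. The Gm11415 site had 3.69 and 6.30 with IAA and was called in replicate 2 of the wild-type line, at 5.31, and replicate 1 of the mutated line, at 4.06. It was in no serum list and in 4 lists of the Chd4 set.

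Gained sites had a lost CTCF site within 10 kb somewhat more often than other peaks, while the median distances were close. Of the gained sites, 272 (6.56%) lay within 10 kb of 1 of the 2879 lost peaks with the consensus, against 4.53% of all peaks in both IAA lists at matched strength. Within 50 kb the shares were 20.6% and 18.4%. The median distance was 199588 bp for gained sites and 201981 bp for all peaks in both IAA lists. Most gained sites had no lost CTCF site within 50 kb.

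Against peaks of both control lists at matched strength, other motifs around the summits differed by fewer points than the CTCF consensus did. That search allowed 1 mismatch within 250 bp, and the others none within 100 bp. Without mismatch, the CTCF shares were 0.0723% and 0.997%, closer in points than those of SOX, AP-1 and KLF. In peaks of 1 control list at matched strength, 1.47% held the CTCF consensus with at most 1 mismatch, inside the interval of the gained sites. Gained sites lay above the matched share for AP-1, KLF and ESRRB, and below it for SOX, SP, AHR and STAT, by more than their 95% Wilson interval, which covers counting error only. This holds against peaks of both control lists. Against peaks of 1 control list at matched strength, the share lay inside the interval for AP-1 (7.95%), KLF (5.61%), ESRRB (1.80%), SOX (3.84%), SP (2.04%) and AHR (2.04%). It lay outside for STAT (0.993%), OTX (5.95%), YY1 (1.83%) and the E-box (4.76%). Exact matches on either strand were counted within 100 bp of the summit, and a window could count for several motifs. AP-1 (TGANTCA), bound by FOS and JUN, was in 8.22% of gained sites and in 7.27% of peaks of both control lists at matched strength. OTX (GGATTA) was in 6.82% and 6.22%, KLF (CCACACCC) in 5.66% and 4.73%, and ESRRB (TCAAGGTCA) in 2.02% and 1.59%. SOX (ACAATGG), the element of SOX2, was in 3.64% (interval 3.11% to 4.25%) and 5.11%, and the octamer (ATGCAAAT) in 2.10% and 2.29%. SP (GGGGCGGG), common at promoters, was in 1.76% of gained sites, against 6.66% of all peaks of both control lists and 2.26% at matched strength.

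For the remaining motifs the gained share and the share at matched strength were as follows. TEAD (ACATTCC) had 4.34% and 4.73%, the E-box (CACGTG) 4.03% and 4.34%, and AHR (TNGCGTG), read by the aryl hydrocarbon receptor, 2.07% and 2.64%. The element of GATA factors, here AGATAAG, had 1.95% and 1.76%, YY1 (AAGATGGC) 1.28% and 1.61%, and STAT (TTCCNGGAA) 0.675% and 1.00%. NRF1 (GCATGCGC) had 0.651% and 0.836%, ETS (CCGGAAGT) 0.554% and 0.561%, and ATF/CREB (TGACGTCA) 0.313% and 0.335%. Of these 16 motifs, AP-1 was the most frequent. Mean GC content within 100 bp of the summit was 50.5%, against 51.5% in peaks of both control lists at matched strength. Repeats covered 18.8% of these windows, against 15.3%.

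**Figure D1:**
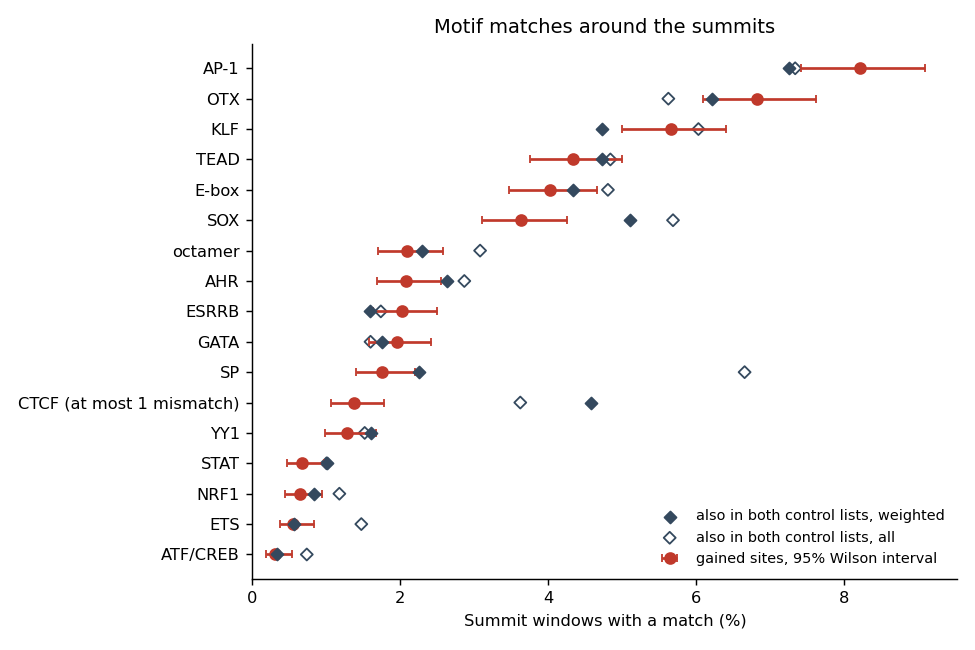
Share of summit windows with each motif, in percent, for the gained sites (red, with 95% Wilson intervals that cover counting error only) and for peaks also in both control lists, at matched strength (filled) and unweighted (open). The CTCF consensus, at 1.37%, lies farthest below its matched share of 4.58%. It was searched with at most 1 mismatch within 250 bp, the others exactly within 100 bp. Without mismatch (not drawn) the CTCF shares are 0.0723% and 0.997%, closer in points than those of SOX. The SP share of the open diamonds, 6.66%, falls to 2.26% at matched strength.

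In the serum set, which the rule did not use, gained sites were called more often after 12 h of IAA than at 0 h. The 0 h lists called 8.17% and 6.22% of the gained sites, and the 12 h lists called 14.3% and 18.7%. Both 12 h lists lay above both 0 h lists. In such bulk samples, opening in more cells and wider opening in each cell cannot be told apart. The mean was 7.19% ± 1.38 (SD, n = 2) at 0 h. At 12 h it was 16.5% ± 3.10 (SD, n = 2), higher by 9.34 points against a spread of 3.40 (the SDs of both groups combined as the root of their summed squares). Over all peaks in both IAA lists the difference was 8.32 points, or 8.57 at matched strength, and in peaks of 1 control list it was 9.76 points, so the rise in points was near the background. The 12 h lists were also longer, with 71773 and 82502 peaks against 69153 and 59786 at 0 h.

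With the 4 serum lists cut to an equal 59786 peaks by the authors' −log10 p, the 0 h lists called 5.91% and 6.22% of the gained sites and the 12 h lists 10.5% and 10.0%. The difference was then 4.22 points, against a spread of 0.421, and the ratio of 12 h to 0 h was 1.70. Peaks of 1 control list went from 10.5% to 14.5%, a ratio of 1.38, or 1.35 at matched strength. Peaks of both control lists had a ratio of 1.07, or 1.03 at matched strength (21.9% and 22.7%). The ratio thus fell in order from gained sites to peaks of 1 and of both control lists. The difference in points, at 4.22, 4.01 and 3.43, was close in the 3 sets before weighting and 4.22, 3.60 and 0.74 after it.

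Most gained sites were called in no serum list. These were 3048 (73.5%), against 35.5% of all peaks in both IAA lists and 58.6% of these at matched strength. Both 12 h lists called 378 gained sites (9.11%; 45.7% of all peaks in both IAA lists), and both 0 h lists called 134 (3.23%; 38.0%). The gain seen in both lists, at 12 h and in no 0 h list, held for 160 sites (3.86%), which is at the 3.91% of all peaks in both IAA lists. The reverse, both 0 h lists and no 12 h list, held for 8 sites (0.193%), against 0.776%. Of the 378 sites of both 12 h lists, 42.3% had no 0 h call. Without matching, this was 31.0% in peaks of 1 control list, 7.69% in those of both and 8.55% over all peaks in both IAA lists. At matched strength, 22.2% of peaks of both control lists were in both 12 h lists and 4.39% were so with no 0 h call. Over all peaks in both IAA lists these were 18.8% and 4.25%, and over gained sites 9.11% and 3.86%. The share of all gained sites that appeared in serum was near the background. Among those called at 12 h the share was above it, by less at matched strength. Gained sites were chosen for no call in the control lists without IAA, so their few 0 h calls are partly fixed by the choice. The reverse count could come only from the 134 sites of both 0 h lists.

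The serum share of gained sites moved little with their strength. From a −log10 q under 2 to the range of 10 to 20, the mean share at 12 h was 16.3%, 16.6%, 16.2%, 16.7% and 17.4%, and at 0 h 6.11%, 6.91%, 7.21%, 7.40% and 7.87%. The 15 sites at 20 or more had 20% at 12 h and 6.67% at 0 h. In peaks of 1 control list the 12 h share went over the same ranges from 19.3% to 23.8% and the 0 h share from 11.004% to 13.6%, also a small change. In peaks of both control lists the 12 h share rose over the same ranges from 20.8% to 45.2%, and the 0 h share from 17.6% to 34.7%. By place, promoter sites had the highest serum shares, with 13.5% at 0 h and 24.5% at 12 h, and intronic sites the lowest, with 6.38% and 14.6%.

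**Figure D2:**
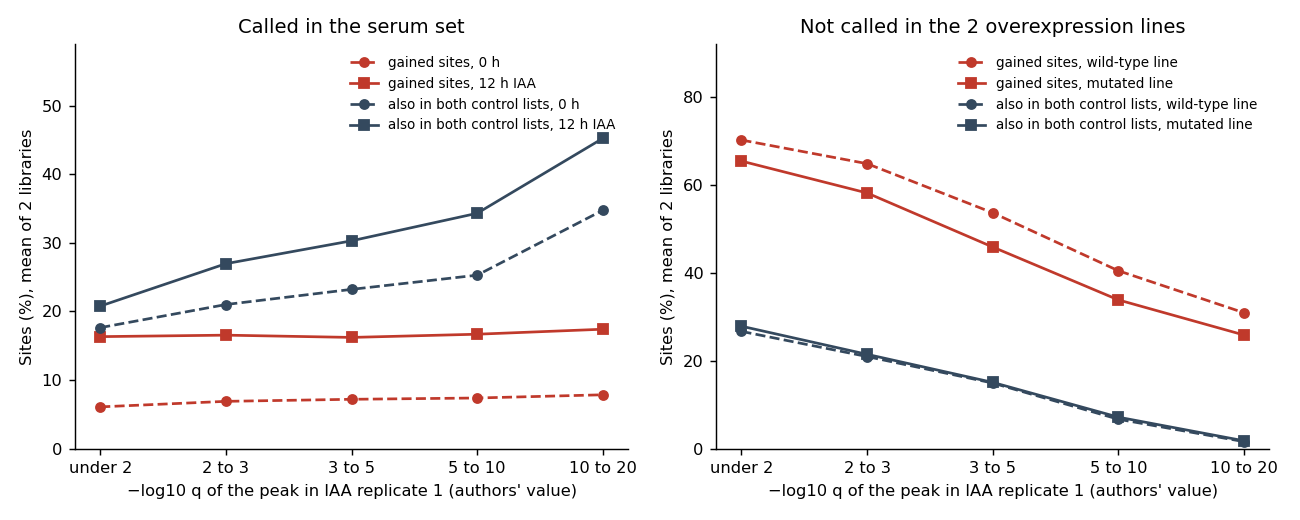
Mean share of sites (percent of sites, 2 libraries a group) called in the serum set (left) and not called in the overexpression lines (right), against the authors' −log10 q in IAA replicate 1, for gained sites (red) and peaks also in both control lists (dark). From under 2 to the range of 10 to 20, the red 12 h line runs between 16.2% and 17.4% and the dark ones rise (peaks of 1 control list, not drawn, go from 19.3% to 23.8% at 12 h), and in the right panel the wild-type line lies above the mutated line for gained sites and on it for the others.

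Both overexpression lines left a large share of the gained sites without a call. The wild-type lists had no peak at 47.1% and 53.1% of the gained sites, a mean of 50.1% ± 4.26 (SD, n = 2). The mutated lists had none at 40.2% and 46.4%, a mean of 43.3% ± 4.40 (SD, n = 2). Both wild-type values lay above both mutated values, and the narrowest step, from 46.4% to 47.1%, was less than the distance between replicates. The control line with IAA called all of these sites by the rule, so a share below that in an independent list is partly fixed by the choice. Peaks of 1 control list were missed in 28.3% and 25.2%, or 32.3% and 28.4% at matched strength. Peaks of both control lists were missed in 2.78% and 2.94%, or 12.8% and 13.2% at matched strength.

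The lines differed by 6.80 points, more not called in the wild-type line, against a spread of 6.12. Without replicate 2 of the wild-type line the difference was 3.78 points, and without replicate 1 of the mutated line 3.69 points. With the rule run without IAA replicate 1 it was 3.96 points, and without control replicate 2 it was 4.39 points. These values are below the spread of the reported difference. Within replicate 1, where both lists had the mitochondrial-like peak, the difference was 6.89 points, and within replicate 2, where neither had it, 6.70 points. In peaks of both control lists at matched strength the difference was −0.394 points, and in peaks of 1 control list 3.88 points. The wild-type lists held 155087 and 131432 peaks and the mutated lists 146703 and 130363, and the part of list length in the difference was not tested. At an equal list length, which also changed the rule and gave 5516 gained sites, the wild-type lists missed 66.7% and 53.7% and the mutated lists 52.7% and 45.6%.

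A gained site is called closed in a line when neither list called it and kept when both did. In the wild-type line 1262 gained sites were closed (30.4%; 2.81% of all peaks in both IAA lists) and 1253 kept (30.2%; 89.1%). In the mutated line 1056 were closed (25.5%; 2.58%) and 1611 kept (38.8%; 89.7%). At matched strength, peaks of both control lists were closed in 3.92% and 4.30% and peaks of 1 control list in 15.0% and 12.3%. In both lines the closed shares of gained sites exceeded those of peaks matched for strength in IAA replicate 1. The comparison sets were chosen for calls in further lists without IAA and the gained sites for none. This order is thus partly fixed by the choice.

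Crossing the lines, 568 gained sites (13.7%) were closed in both, against 0.932% of all peaks in both IAA lists and 4.53% at matched strength. Kept in all 4 lists were 773 (18.6%), against 84.5% and 52.3%. Sites closed in the wild-type and kept in the mutated line numbered 245 (5.91%), against 0.808% of all peaks and 2.91% at matched strength. The reverse held for 120 (2.89%), against 0.643% and 2.14%. In peaks of 1 control list the same counts were 315 and 211, in the same order, and in peaks of both control lists 248 and 312, in the other order. By replicate number, 261 gained sites (6.29%, against 1.17% of all peaks in both IAA lists) were called by both replicate 1 lists alone. Both replicate 2 lists alone called 152 (3.66%, against 0.481%). These splits by number were of like size to the splits by line, and the lists without the mitochondrial-like peak are those of replicate 2. The part of the mitochondrial-like peak's lists in these splits was not tested.

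**Figure D3:**
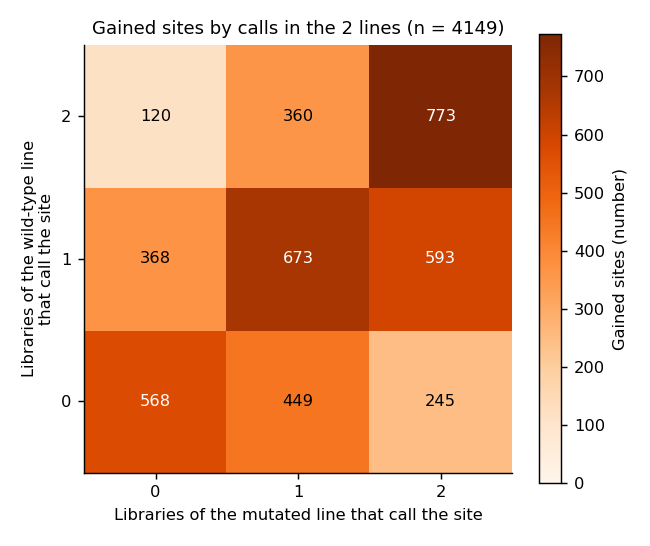
Number of gained sites by how many of the 2 wild-type libraries (vertical) and of the 2 mutated libraries (horizontal) called them, out of 4149. The corner of sites closed in the wild-type and kept in the mutated line holds 245, and the opposite corner holds 120.

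Weaker gained sites were closed more often. The median −log10 q was 3.05 in sites closed in both lines and 5.80 in sites kept in all 4 lists. The share not called by the wild-type line fell from 70.1% under a −log10 q of 2 to 30.9% in the range of 10 to 20, and by the mutated line from 65.3% to 25.8%. The wild-type share was the higher in each of these ranges. Pooled over strength, sites closed in both lines and sites kept in all 4 lists had like shares in serum. These were 6.69% and 7.37% at 0 h and 15.5% and 15.5% at 12 h. Within ranges the 0 h shares differed in both directions. They were 8.52% and 5.21% from 2 to 3, 4.37% and 9.17% from 3 to 5, and 9.47% and 6.40% from 5 to 10. In the sets without IAA the pooled classes differed, without matching for strength. The means were 7.75% and 16.5% for shluci of the Chd4 set and 14% and 26.3% for shluci of the Chd8 set. Their promoter shares were 5.28% and 4.92% and their mean GC 50.4% and 50.2%. The CTCF consensus was in 1.06% of the closed sites (6) and 2.20% of the kept ones (17). Of the 57 gained sites with the consensus, the wild-type line kept 40.4% and the mutated line 52.6%, against 30.1% and 38.6% of those without it.

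Independent lists without IAA called some of the gained sites. The 6 lists of the Chd4 set called 9.35% to 17.5% of them and the 6 of the Chd8 set 15.5% to 24.5%, as in the plot of calls by library. The shluci hairpin gave 13.7% ± 5.403 (SD, n = 2) in the Chd4 set and 21% ± 4.99 (SD, n = 2) in the Chd8 set. The hairpins against Chd4 gave 13.7% and 12.9%, and those against Chd8 17.0% and 17.9%, differences from shluci within the spread between replicates. None of the 4 shluci lists called 2308 gained sites (55.6%; 17.6% of all peaks in both IAA lists). None of the 14 lists without IAA outside the rule called 1326 (32%; 7.51%). At matched strength these shares were 38.2% and 17.7%. Most gained sites were thus called at least once in cells that were not treated with IAA.

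**Figure D4:**
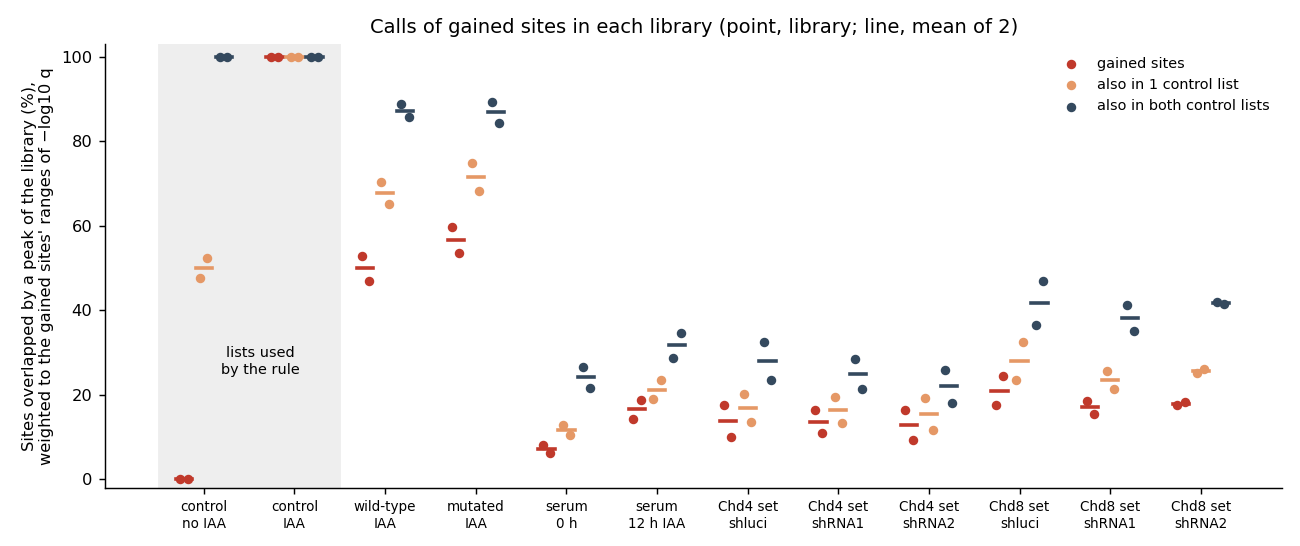
Share of sites overlapped by a peak of each library, in percent, for gained sites and for peaks also in 1 or both control lists, at matched strength (points, libraries; lines, means of 2). The shaded lists chose the sites. In all unshaded groups the gained sites lie lowest, from a mean of 7.19% at serum 0 h to 56.7% in the mutated line. The comparison sets were chosen for calls in the control lists, so this order is partly fixed by the choice.

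Single sites were taken by a fixed rule, 18 in all. The strongest by the lower of their 2 IAA percentiles lay in Zc3h7a, a gene for a zinc finger protein, at chr16:11144221-11144721 and 162 bp from the miRNA model Gm23935. Its −log10 q was 56.3 and 53.4 in the IAA lists, 38.1 in replicate 2 of the wild-type line and 44.1 in replicate 2 of the mutated line. No other list called it, so the lists of both lines were split by replicate number. The next lay at chr15:63810965-63811654, 2513 bp from the start of Gsdmc, a gasdermin of the pore-forming family. Its −log10 q was 47.1 and 32.3 with IAA, 24.4 and 15.2 in the wild-type line, 54.7 and 44.5 in the mutated line, and 17.7 and 11.5 in serum at 12 h. No serum 0 h list called it, and 3 lists of the Chd4 set did.

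The third lay in an intron of Kcnn1, which encodes a calcium-activated potassium channel, at chr8:70845204-70845445. Its −log10 q was 37.2 and 31.3 with IAA, 23.3 and 20 in the wild-type line, 22.6 and 17.5 in the mutated line, and 6.16 in replicate 2 of serum at 12 h. No list without IAA called it. The site near Gm32431 (chr16:50994163-50994645), with an octamer inside a repeat, had 30.0 and 44.0 with IAA, 57.1 and 21.5 in the wild-type line and 52.6 and 23.0 in the mutated line. It was in no serum list and in 4 lists of the Chd sets. The site near Gm28117 (chr15:75190639-75190889) lay 72689 bp from any control peak and had 28.9 and 29.0 with IAA. The wild-type line had 6.85 and 5.31 there and the mutated line 18.1 and 11.1, while no serum list and no list without IAA called it. Of these 5 sites, 4 were kept in all 4 lists of the lines.

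Among sites gained in serum too (both 12 h lists, no 0 h list), the strongest in serum, of those not named above, lay in an intron of Naaladl2, at chr3:25125351-25125710. It had 9.89 and 8.89 with IAA and 10.2 and 16.1 in serum at 12 h, and neither line called it, but 7 lists of the Chd sets did. The site near Gm24628 (chr4:54758416-54758601), whose nearest protein-coding gene is the zinc finger gene Zfp462, had 1.35 and 3.29 with IAA, close to the calling threshold, and 9.19 and 17.7 in serum. Neither line called it. A site 3046 bp from the snoRNA model Gm23202, near the ribosomal protein gene Rpl21, was called in all 4 lists of the lines, at 6.63 and 28.1 in the wild-type and 12.9 and 13.5 in the mutated line. A site near Gm48132, 320304 bp from Grik2, a kainate receptor gene, was called in 1 list of the mutated line, at 6.07. A site 17252 bp from Coa5, a gene for assembly of cytochrome oxidase, was called in 3 of the 4 lists. All 5 were called in at least 1 list of the Chd sets.

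Of the serum-gained sites closed in both lines and not named above, the strongest in serum lay in an intron of Mical3, whose product oxidises actin, at chr6:121009764-121010267. It had 4.76 and 7.75 with IAA and 8.85 and 7.05 in serum at 12 h, and no other list called it. The site 837 bp from a start of Cul9, a cullin-like ubiquitin ligase gene, at chr17:46547004-46547262, had 5.94 and 1.89 with IAA and 5.38 and 8.84 in serum, again alone. The site 1914 bp from Hoxb1, a homeobox gene of hindbrain patterning, at chr11:96363795-96363980, had 3.05 and 5.50 with IAA and 3.64 and 7.55 in serum, also alone. These 3 were called in 4 lists each, all with IAA. The sites near Efcab2 and in Cacna2d1, which encodes a subunit of calcium channels, were also called in 2 and 4 lists of the Chd4 set.

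The serum-gained sites kept in all 4 lists and not named above were led by an intron of Stambp, a gene for an endosomal deubiquitinase (chr6:83563261-83563564). It had 21.3 and 14.6 with IAA, 22.1 and 16.2 in the wild-type line, 26.8 and 9.31 in the mutated line and 11.9 and 4.47 in serum at 12 h. An intron of Cntnap5a, a gene of neuronal adhesion, had 7.33 and 5.50 with IAA and a stronger peak, at 30.1, in 1 shluci list of the Chd4 set without IAA. An intron of Nol4l (chr2:153426980-153427245) had 7.40 and 3.57 with IAA, and the 8 lists that called it were all lists with IAA. These values rank a peak within its own list and are not levels across libraries.

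**Figure D5:**
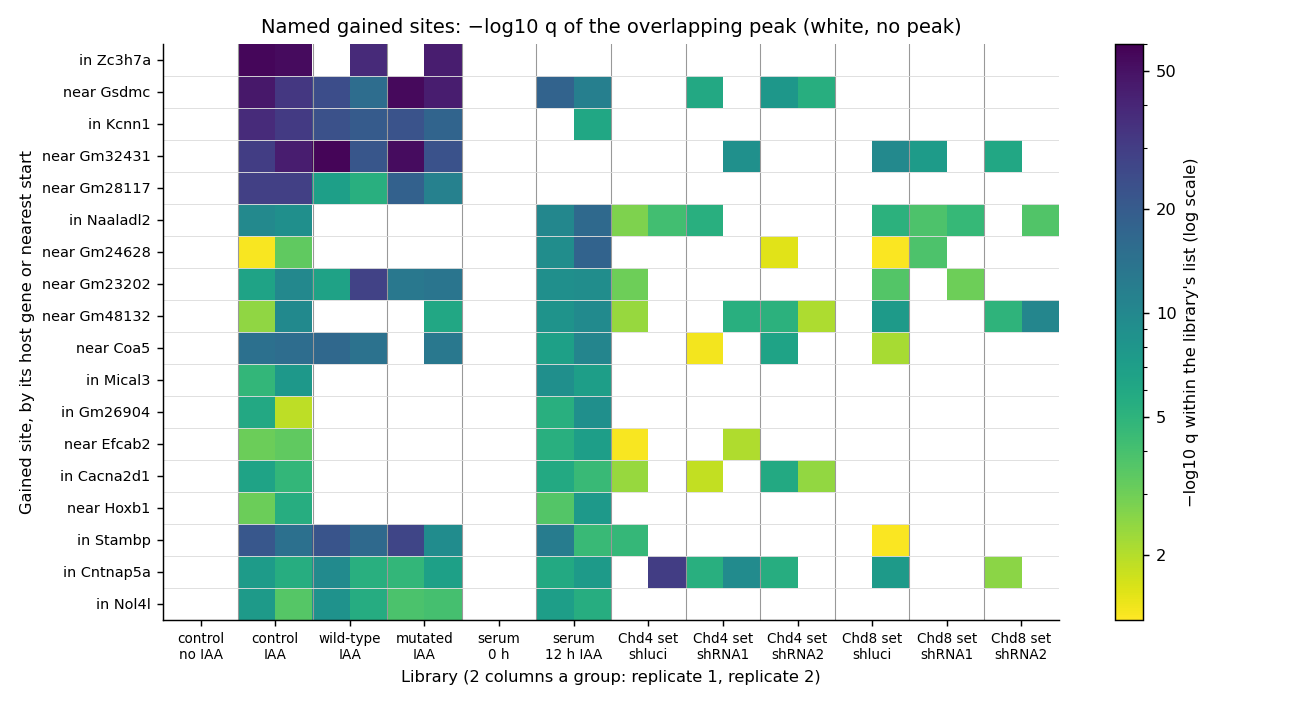
The authors' −log10 q (colour, log scale) of the peak overlapping each of the 18 named gained sites in each of the 24 libraries, with white for no peak. The 4 columns without IAA that are white throughout are the control line, by the rule, and serum 0 h, where all but the 5 strongest sites were chosen for having no call, and 7 sites are white in all lists without IAA.

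Gained sites near genes of stem cell and lineage control were few. By the nearest protein-coding start, 12 gained sites of 376 peaks belonged to 8 of the 14 naive pluripotency genes (3.19%), against 4.15% over all peaks in both IAA lists. Klf4, a factor of the naive state, had 2, at 6569 and 8823 bp from its start. Sox2 had 1 at 41865 bp (chr3:34692164-34692419), which all 4 serum lists and all 4 lists of the lines called. Tfcp2l1 had 1 at 138826 bp, kept in all 4 lists of the lines and called in no serum list, and Zfp42 had 2, of which 1 was closed in both lines. Tbx3 had 3, at 41095 to 529827 bp, and Tet2, Nanog and Klf2 had 1 each. Of the 12 sites, 9 were called in no serum list, beside 73.5% of all gained sites.

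Primed pluripotency genes had 3 gained sites of 129 peaks, 2 near Lef1 and 1 near Sox3. Endoderm and mesoderm genes had 6 of 130 (4.62%), among them 1 at 33159 bp from Eomes and 1 at 32522 bp from T (brachyury), which both serum 12 h lists and no 0 h list called. Neural genes had 1 of 88, near Six3, and trophoblast genes 3 of 121, 2 near Tfap2c and 1 near Tfap2a. The Tfap2a site (chr13:40545328-40545585) had a −log10 q of 8.96 and was closed in the wild-type and kept in the mutated line. Genes of the aryl hydrocarbon receptor response had 3 of 33 (9.09%), near Tiparp, Ahrr and Cyp1b1, beside 4.15% over all peaks in both IAA lists.

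Genes of CTCF and cohesin had 8 gained sites of 82 peaks (9.76%, beside the same 4.15%). All 8 lay in introns, 3 in Stag1, a cohesin subunit, and 2 each in Pds5a and Nipbl, a regulator and the loader of cohesin, with 1 in Wapl, its release factor. They lay 31363 to 178897 bp from the nearest protein-coding start. None was kept in all 4 lists of the lines, beside 18.6% of all gained sites, and 1, in Stag1, was closed in the wild-type line, beside 30.4%. No serum list called 4 of the 8, beside 73.5%. Over the 7 lists, none of the 36 gained sites lay at a promoter. These counts are small, and whether a list differs from other genes was not tested.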

How the data were processed

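The authors deposited 1 narrowPeak list per library, 24 in all, with no pooled replicates. Per the submitters' processing notes, Trim Galore, Bowtie2, MACS2 and deepTools were used with the mm10 build, and their versions are not given in the sources used here. In the deposited lists each peak has a fold enrichment, a −log10 p and a −log10 q, which rank peaks within a list and are not levels across libraries. No read counts or depths were used.

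Peaks overlapping by at least 1 bp were taken as the same site. Shares of sites were computed per library, and per group as mean ± SD. Wilson intervals of 95% cover counting error only. Summits were placed on GENCODE vM21 basic (77200 transcription starts), and sequence was read from GRCm38. The members and lists were chosen with earlier results of these data known. Named sites, outside chromosome 18, were the 5 with the highest lower percentile of −log10 p in the 2 IAA lists. The rule added the 5 highest in serum among those called in both 12 h and no 0 h lists, the 5 highest of these that neither overexpression line called, and the 3 highest that all 4 of those lists called. It also took the 3 genes with most gained sites and any gained site at a start of a listed gene, of which there were none. The calculations were tested on simulated data. Python 3.11.15, NumPy 2.4.6, pandas 2.3.3, SciPy 1.17.1 and Matplotlib 3.10.9 were used.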

Additional observations from a re-analysis of the deposited data

How the results depend on the processing

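Depth and list length limit these counts, since a site not called may be open below the threshold, and 2 libraries a group leave little to judge a difference by. Only the serum and line differences could change direction, since the other results are counts or shares, and neither did. Of 9 alternatives other than leaving out a library, 3 moved the serum difference by at least its spread. Of 6 alternatives that left out a library, 4 moved the share not called by at least its SD, in the wild-type and in the mutated line. With the lists of a set cut to its shortest, the serum difference was 4.08 points and the shares not called were 60.2% (wild-type line) and 49.1% (mutated line). With a −log10 q of at least 5 there were 2674 gained sites, not called in 43.9% and 36.6%. The CTCF share was 0.0723% without mismatch, 15.0% with up to 2 mismatches and 0.241% within 50 bp of the summit. The promoter share was 11.9% at 2000 bp. In 2 alternatives chosen after seeing the data, the serum difference was 1.80 points with the matched difference of peaks in both control lists taken off, and 4.22 with the serum lists alone cut. A replicate block, the mean of differences within replicate number, gives 9.34 for serum and 6.80 for the lines, which equal the reported differences by construction and say nothing of stability. The serum numbers may not be those of the libraries. Leaving out 1 library at a time gave 8016 to 15845 gained sites, a serum difference of 6.54 to 11.5 points, 38.3% to 69.5% not called in the wild-type line, 33.9% to 64.3% in the mutated line, a line difference of 3.69 to 9.91 points, a CTCF share of 1.20% to 1.55% and a promoter share of 3.79% to 4.44%.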
